A study of Mus musculus with 6 samples.

Results

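The genes described here are the TNF ligand and receptor superfamily in mouse liver, and their messages were compared between Fam210aHKO livers, in which Fam210a was knocked out in hepatocytes, and Ctrl livers. Members were the protein-coding genes whose symbols start with Tnfrsf or Tnfsf and a digit, with Tnf, Lta, Ltb and Ltbr added. The rule found 35 of the 54532 genes in the count table, 14 ligands and 21 receptors. Liver RNA of mice aged 5 weeks was sequenced in 6 libraries, 3 Fam210aHKO and 3 Ctrl. Fam210a encodes a mitochondrial protein. The knockout is described as hepatocyte-specific, so Kupffer, endothelial, stellate and bile duct cells of the same livers are meant to keep the gene. The sources used here do not give the Cre driver, the sex of the mice, or the alleles and any Cre of the Ctrl mice. Groups were set by the sample titles, because the genotype entries of knockout replicates 2 and 3 name a gene with a higher number than Fam210a. Nothing in the labels says that the samples of a group are separate animals, so p-values cover only the spread among these samples, which may be technical.

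TNF superfamily ligands are mostly trimeric membrane proteins, often released by proteases, and their receptors pass the signal on through adaptor proteins of the TRAF family or through death domains. The outcomes range from NF-kB activation to caspase-driven cell death. In the liver the family is known for its part in hepatocyte injury, in regeneration and in the growth of ductular cells, and most of its ligands are made by immune cells.

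Fam210a itself was lower in each Fam210aHKO library. In CPM, which are counts per 1000000 after scaling with TMM factors, it measured 31.7, 28.6 and 44.2 in Fam210aHKO livers, against 119, 136 and 162 in Ctrl livers (log2 fold change -1.99, SE 0.194, adjusted p = 4.42e-05, edgeR quasi-likelihood test). Library totals were 12.5 to 19.7 M counts (1 M is 1000000) in Fam210aHKO and 13.0 to 16.9 M in Ctrl, with TMM factors of 1.16 to 1.19 in Fam210aHKO and 0.797 to 0.887 in Ctrl, and a count of 3 stood for 0.132 to 0.206 CPM in Fam210aHKO and 0.202 to 0.261 CPM in Ctrl. The 5 hepatocyte markers together held 78090 to 98220 CPM in Fam210aHKO and 135400 to 212600 CPM in Ctrl. The sums did not overlap, and 3 of the 5 (Apoa1, Ttr and Hnf4a) were called lower. The 6 markers listed for monocyte-derived macrophages summed to 41.6 to 57.2 CPM in Fam210aHKO, against 13.7 to 21.5 CPM in Ctrl. Of the 6, 3 were called higher (Trem2, Gpnmb and Cd9), with Gpnmb at 0 in Ctrl replicate 1. Cd9 and Gpnmb made up most of the sum in Fam210aHKO, and Cd9 most of it in Ctrl. Ccr2, Ly6c2 and Itgax were not called, and the groups overlapped for Ccr2 and Ly6c2. The sum thus describes mainly Cd9 and Gpnmb. The 5 cholangiocyte markers summed to 67.6 to 98.1 CPM in Fam210aHKO, against 44.6 to 58.9 CPM in Ctrl, with 2 of 4 tested members called higher, and the 5 stellate cell markers to 356 to 463 CPM, against 266 to 338 CPM, with 0 of 5 called. At an unadjusted p under 0.05 the stellate list had 1 member, Dcn. Kupffer, endothelial, dendritic, neutrophil, T, B and natural killer cell sums overlapped between the groups, with the Kupffer marker Marco called higher and the endothelial markers Stab2 and Clec4g called lower, and Ly6g, which defines neutrophils, had 0 counts in all Fam210aHKO libraries and 0, 1 and 0 in Ctrl. In whole-liver RNA a change in the number of cells of a type and a change in RNA per cell cannot be told apart.

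In the knockout livers 5 receptors rose and no member of the family was called lower. They were Tnfrsf10b, Tnfrsf12a, Tnfrsf19, Tnfrsf23 and Tnfrsf1a, with fitted increases between 1.46-fold and 18.0-fold. Of the 35 members, 17 passed the filter on low counts, 14 receptors and 3 ligands. Of those, 5 (29.4%) were called higher at an adjusted p under 0.05, where 14.0% of all 13706 tested genes were called higher, and 0 were called lower, where 13.5% of all tested genes were. Counting either direction, the members' share of 29.4% was close to the 27.5% of all tested genes, so the family as a whole did not stand out by its number of calls. At an unadjusted p under 0.05, Tnfrsf14 was the 1 member lower. DESeq2 and limma-voom called the same 5 members higher and 0 lower. The median log2 fold change was 0.33 over the 17 tested members and 0.02 over all tested genes. The filter works on counts per 1000000 of the library total, before TMM scaling. On that scale Tnfrsf10b and Ltb reached its level of 0.618 in no Ctrl library and passed through their Fam210aHKO level. Tnfrsf23 reached it in 3 Fam210aHKO libraries and 1 Ctrl library, Tnfrsf11a in 3 and 2, and Tnfrsf13b in 2 and 1. These counts and medians therefore describe the tested members and support nothing further. Without Fam210aHKO replicate 2 the members' median was 0.50, and without Ctrl replicate 2 it was 0.22. When libraries were scaled by their totals alone the median of all tested genes moved to 0.47, and 8 members were called higher and 0 lower, where 42.7% of all tested genes were called higher and 6.33% lower (49.0% in either direction). The 3 members added by that scaling were Ltb, Ltbr and Tnfrsf22. With the replicate number as a block the same 5 members were called higher and 0 lower, where 17.8% of all tested genes were called higher and 18.0% lower (35.7% in either direction). Where no scaling is named, values are those with TMM scaling. The macrophage, cholangiocyte and stellate marker sums given above were also higher, and the hepatocyte sum lower, in every knockout library. Their part in the increases was not tested. Cdh1 made up most of the cholangiocyte sum, Dcn of the stellate sum and Alb of the hepatocyte sum. Mean levels in Fam210aHKO and Ctrl were 67.9 and 44.9 CPM for Cdh1, 296 and 218 CPM for Dcn, and 74310 and 136500 CPM for Alb. Cdh1 and Epcam were called higher, while Dcn, Alb, Krt19 and Sox9 were not called. The groups overlapped for Krt19 and Sox9, but not for Epcam or the untested Krt7. They also overlapped for the stellate markers Lrat, Reln, Pdgfrb and Des. The cholangiocyte and stellate sums thus describe mainly Cdh1 and Dcn.

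**Figure D1:**
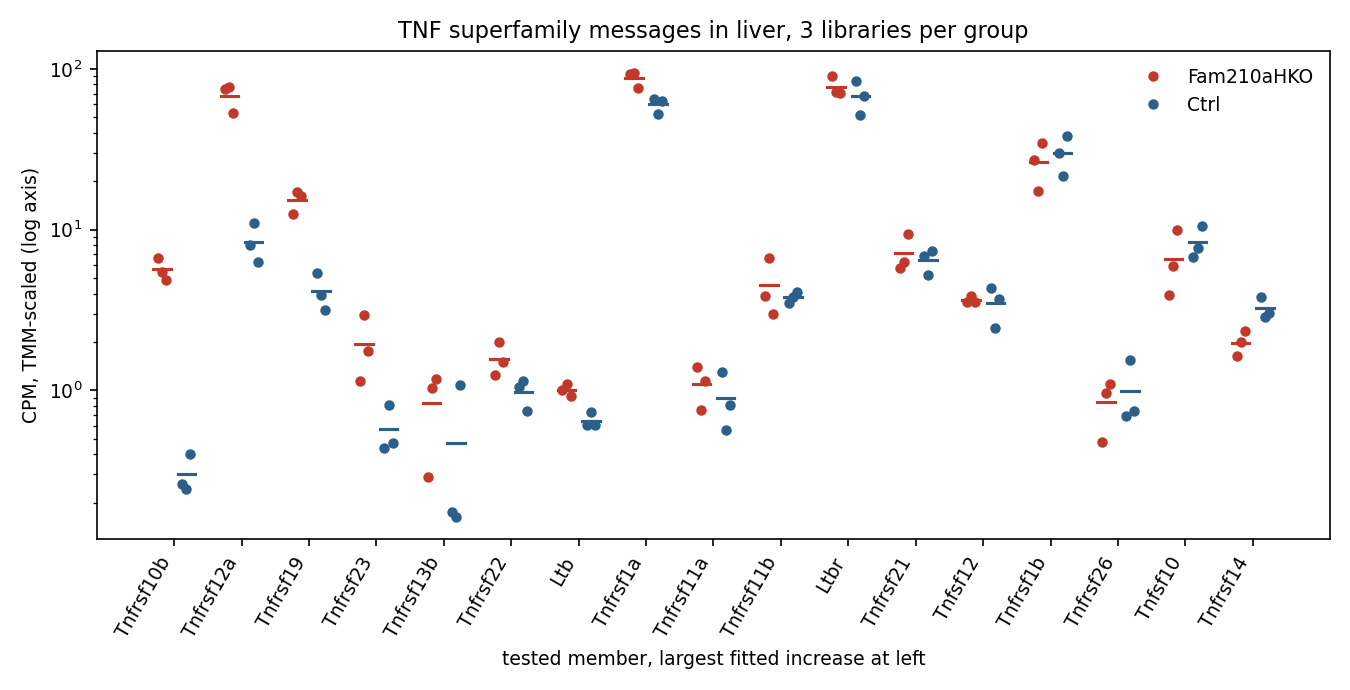
Level of each tested member in every library, in CPM scaled by TMM factors on a log axis, with Fam210aHKO points (red) left of Ctrl points (blue) and a bar at each group's mean of 3 libraries. The groups stand apart most clearly for Tnfrsf10b, Tnfrsf12a and Tnfrsf19 at the left.

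The receptor of the ligand TWEAK, Tnfrsf12a, showed the largest gain in abundance. Also known as Fn14, it is a small receptor that is scarce in resting liver and is known to be induced by liver injury and to drive the growth of progenitor and ductular cells. The gene lies at chr17:23675445-23677468 (mm10, minus strand). Its level was 74.4, 77.1 and 52.8 CPM in Fam210aHKO replicates 1 to 3, against 8.0, 11.0 and 6.32 CPM in Ctrl replicates 1 to 3. The lowest knockout library thus stood far above the highest control library. It rose by a fitted log2 fold change of 3.02 (SE 0.231, adjusted p = 1.13e-05, edgeR quasi-likelihood test), an increase of 8.09-fold, and it ranked 207 from the top among the 13706 tested genes. Its ligand Tnfsf12 was at 3.54, 3.85 and 3.55 CPM in Fam210aHKO, within the range of 4.35, 2.44 and 3.70 CPM in Ctrl (log2 fold change 0.06, SE 0.260, adjusted p = 0.889). The Tnfsf12 value has a limit of its own, since 46.8% of the 50-base stretches of its transcripts also occur in Tnfsfm13, a read-through gene that joins it to Tnfsf13. In FPKM, which is per length, Tnfrsf12a held 16.5, 15.7 and 11.7 times the level of Tnfsf12 in the Fam210aHKO libraries, against 1.44, 3.53 and 1.34 times in the Ctrl libraries.

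Among the receptors for TRAIL, the death receptor rose most in relative terms. Tnfrsf10b is the mouse receptor through which TRAIL can trigger apoptosis, by way of a death domain. It lies at chr14:69767472-69784411 (plus strand). Counts were 140, 79 and 111 in Fam210aHKO and 3, 3 and 6 in Ctrl, or 6.70, 5.43 and 4.87 CPM against 0.261, 0.244 and 0.403 CPM. The control level was thus close to that of 3 counts in a library, while every knockout library was well above it. Of the 50-base stretches of Tnfrsf10b transcripts, 6.21% also occur in other genes, Gm15574 and Pck2 among them. The increase was 4.17 in log2 terms (SE 0.333, adjusted p = 1.5e-05, edgeR quasi-likelihood test), and the gene ranked 105 from the top of all tested genes. Increases of at least 1 log2 unit were called for 7.68% of tested genes and for 4 members, and increases of at least 3 log2 units for 1.52% of tested genes, Tnfrsf10b and Tnfrsf12a among them.

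The mouse genome also carries TRAIL receptors without a death domain, Tnfrsf22 and Tnfrsf23, known as decoy receptors, which stand in a row with the related gene Tnfrsf26 at chr7:143607659-143685872 (all on the minus strand). Tnfrsf23 rose, with 1.15, 2.96 and 1.75 CPM in Fam210aHKO, against 0.435, 0.812 and 0.471 CPM in Ctrl (log2 fold change 1.74, SE 0.459, adjusted p = 0.0163, edgeR quasi-likelihood test). That call was not made without Ctrl replicate 1 (adjusted p = 0.0654), Ctrl replicate 3 (0.0726) or Fam210aHKO replicate 2 (0.0652). Tnfrsf22 was at 1.24, 2.0 and 1.49 CPM in Fam210aHKO and 1.04, 1.14 and 0.739 CPM in Ctrl, groups that did not overlap but were not called (log2 fold change 0.69, SE 0.353, adjusted p = 0.175). The pair shares sequence. Of the 50-base stretches of Tnfrsf23 transcripts, 19.3% also occur in other genes, most of them in Tnfrsf22, and of those of Tnfrsf22 27.4% do, most of them in Tnfrsf23. The sources used here do not give how reads matching both were counted. Summed into 1 gene, which was chosen after their shared sequence was seen, they gave 2.39, 4.95 and 3.25 CPM in Fam210aHKO and 1.48, 1.95 and 1.21 CPM in Ctrl (log2 fold change 1.18, SE 0.339, adjusted p = 0.0239). Tnfrsf26 overlapped between groups, with 0.478, 0.963 and 1.10 CPM in Fam210aHKO and 0.696, 1.54 and 0.739 CPM in Ctrl. The ligand Tnfsf10, which encodes TRAIL, overlapped as well, with 3.92, 5.92 and 9.87 CPM in Fam210aHKO and 6.78, 7.71 and 10.5 CPM in Ctrl (log2 fold change -0.34, SE 0.314, adjusted p = 0.459). Its fitted value turned to 0.10 with library totals. Per length, Tnfrsf10b stood at 2.10, 0.817 and 1.12 times the summed FPKM of both decoy receptors in Fam210aHKO, against 0.134, 0.0942 and 0.252 times in Ctrl.

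**Figure D2:**
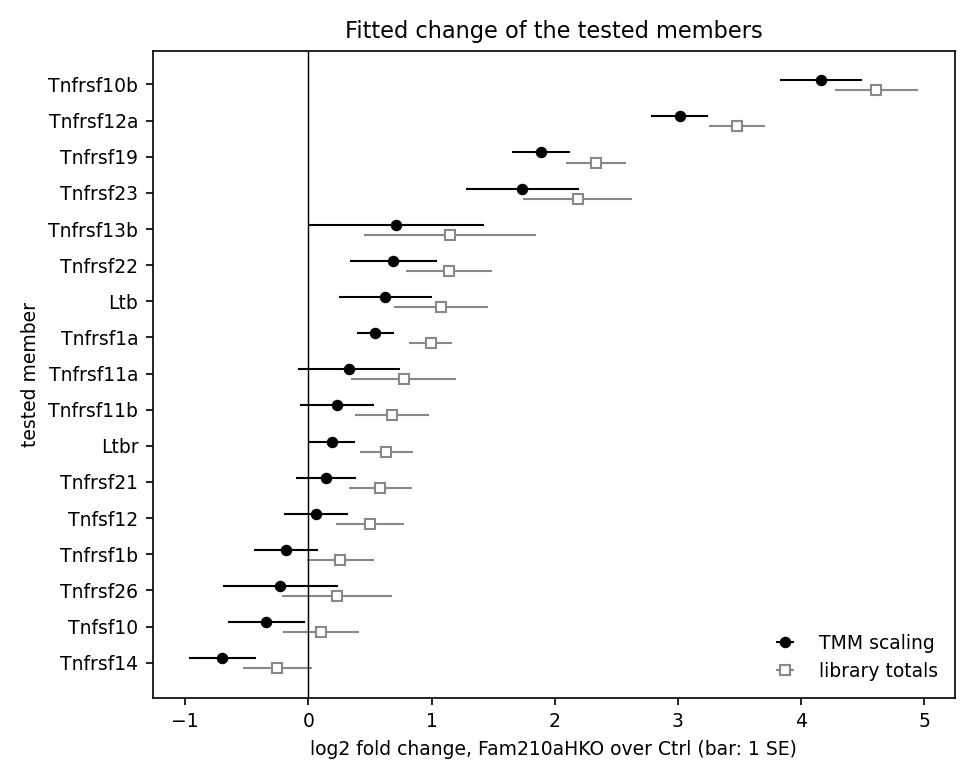
Fitted log2 fold change, Fam210aHKO over Ctrl, of the 17 tested members with a bar of 1 SE on each side, under TMM scaling (filled circles) and with library totals (open squares). Library totals move every member to the right, and Tnfrsf1b, Tnfrsf26 and Tnfsf10 then lie above 0.

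Tnfrsf19 also rose. It encodes TROY, a receptor without a death domain that signals through TRAF proteins and is known as a WNT target gene and stem cell marker in the mouse intestine. The gene lies at chr14:60963875-61046490 (minus strand). Its level was 12.5, 17.1 and 16.3 CPM in Fam210aHKO, against 5.39, 3.90 and 3.16 CPM in Ctrl, with every knockout library above every control library. Its increase was 1.89 on the log2 scale (SE 0.236, adjusted p = 0.000216, edgeR quasi-likelihood test). Tnfrsf21, which encodes a death domain receptor known as DR6, stood at 5.79, 6.26 and 9.39 CPM in Fam210aHKO and 6.87, 5.2 and 7.39 CPM in Ctrl (log2 fold change 0.14, SE 0.244, adjusted p = 0.709). Its groups overlapped.

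Of the receptors for TNF itself, Tnfrsf1a rose and Tnfrsf1b was not called, and the difference between their changes was not tested. Tnfrsf1a, the widely expressed death domain receptor for TNF on hepatocytes, lies at chr6:125349362-125362484 (plus strand). It was at 93.0, 94.2 and 76.2 CPM in Fam210aHKO, against 65.3, 52.0 and 63.3 CPM in Ctrl. The groups did not overlap, and the increase was small beside those above (log2 fold change 0.55, SE 0.152, adjusted p = 0.0208, edgeR quasi-likelihood test). It was not called without Ctrl replicate 2 (adjusted p = 0.068), Ctrl replicate 3 (0.0533), Fam210aHKO replicate 1 (0.0798) or Fam210aHKO replicate 2 (0.0839). Tnfrsf1b, the second TNF receptor, which lacks a death domain and is found mostly on immune and endothelial cells, was at 27.0, 17.3 and 34.7 CPM in Fam210aHKO and 30, 21.6 and 38.0 CPM in Ctrl (log2 fold change -0.18, SE 0.260, adjusted p = 0.649). Its fitted value turned to 0.26 with library totals. Tnf, the ligand of both, was at the limit of detection, with 3, 1 and 2 counts in Fam210aHKO and 0, 2 and 1 counts in Ctrl. Lta, which encodes lymphotoxin alpha, had 1 count in Fam210aHKO replicate 2 and 0 in the other 5 libraries.

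The lymphotoxin beta receptor gene Ltbr lies 35.5 kb from Tnfrsf1a, at chr6:125306571-125313885 (minus strand). It activates the noncanonical NF-kB pathway on binding of membrane lymphotoxin or LIGHT. Ltbr was abundant in both groups, with 90.7, 71.4 and 70.5 CPM in Fam210aHKO and 84.2, 51.9 and 67.9 CPM in Ctrl, and the groups overlapped (log2 fold change 0.19, SE 0.188, adjusted p = 0.494). With library totals it was called higher (log2 fold change 0.63, adjusted p = 0.0287). Its ligand subunit Ltb was scarce, with 1.0, 1.10 and 0.921 CPM in Fam210aHKO and 0.609, 0.731 and 0.605 CPM in Ctrl. Those groups did not overlap, but the difference was not called (log2 fold change 0.63, SE 0.374, adjusted p = 0.244) except with library totals (1.08, adjusted p = 0.0343). Tnfrsf14, the LIGHT receptor also known as HVEM, was the 1 tested member with every knockout library below every control library, at 1.63, 2.0 and 2.32 CPM in Fam210aHKO and 3.83, 2.84 and 3.02 CPM in Ctrl. It was not called by the edgeR quasi-likelihood test (log2 fold change -0.70, SE 0.269, adjusted p = 0.078) and was called lower by limma on log2(FPKM + 1), where the log2 difference was -0.55 (adjusted p = 0.0298). Of the 50-base stretches of Tnfrsf14 transcripts, 4.51% also occur in other genes, Icam1 among them. LIGHT itself, Tnfsf14, had 4, 4 and 8 counts in Fam210aHKO and 1, 5 and 0 counts in Ctrl and was not tested. Groups without overlap were found for 7 of the 17 tested members above and 1 below the controls, where 22% and 20.7% of all tested genes were so. In either direction 42.7% of all tested genes were so. Tnfrsf10b and Ltb, both among the 7, passed the filter only through their Fam210aHKO level. These counts therefore describe the tested members and support nothing further.

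To show the sequence in front of receptors that rose, the 250 bases before the RefSeq start (GRCm38.p6, the same build as mm10) are given for Tnfrsf12a (chr17:23677450-23677699, minus strand), Tnfrsf1a (chr6:125349473-125349722, plus strand) and Tnfrsf23 (chr7:143685876-143686125, minus strand). Ltbr (chr6:125313886-125314135, minus strand), the neighbour of Tnfrsf1a that was not called, is set beside them. Capitals mark matches to a loose NF-kB pattern, GGG, then any 5 bases, then CC, on either strand.
Tnfrsf12a: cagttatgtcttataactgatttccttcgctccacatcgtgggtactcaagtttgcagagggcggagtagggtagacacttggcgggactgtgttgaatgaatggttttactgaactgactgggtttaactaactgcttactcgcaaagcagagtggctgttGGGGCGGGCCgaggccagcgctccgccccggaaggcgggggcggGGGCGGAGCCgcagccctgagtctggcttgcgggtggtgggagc
Tnfrsf1a: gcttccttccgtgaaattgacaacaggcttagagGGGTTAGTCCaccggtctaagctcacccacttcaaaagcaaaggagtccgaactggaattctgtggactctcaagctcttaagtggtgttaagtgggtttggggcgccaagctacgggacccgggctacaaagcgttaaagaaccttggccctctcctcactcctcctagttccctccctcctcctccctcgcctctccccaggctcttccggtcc
Tnfrsf23: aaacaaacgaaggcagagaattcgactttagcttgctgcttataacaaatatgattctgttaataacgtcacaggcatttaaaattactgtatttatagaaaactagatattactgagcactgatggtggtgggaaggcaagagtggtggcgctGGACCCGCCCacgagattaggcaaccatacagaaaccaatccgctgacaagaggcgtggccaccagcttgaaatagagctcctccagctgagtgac
Ltbr: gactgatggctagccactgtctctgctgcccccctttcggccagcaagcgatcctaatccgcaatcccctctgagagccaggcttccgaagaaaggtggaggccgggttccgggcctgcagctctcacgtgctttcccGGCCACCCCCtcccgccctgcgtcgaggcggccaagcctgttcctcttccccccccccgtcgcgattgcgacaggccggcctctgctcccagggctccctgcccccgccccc
As many as 45.8% of all 32851 such windows hold the pattern at least once. Of the 5 windows of called members (4 genes, with 2 starts for Tnfrsf19), 3 held it, and of the 13 windows of tested members 9 did. Those 3 are the windows of called members printed above. The 2 windows of Tnfrsf19, which are not printed, held no match. The AP-1 pattern TGANTCA, found in 6.75% of all windows, and the pattern TGATGNAAT of the ATF4-C/EBP composite element, found in 0.816%, were in 0 windows of tested members. Both strands were searched. A match describes letters and no binding, and a window without a match says nothing of the factor. The table held 28 of the 35 members, and Tnfrsf10b was not among them.

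The RANK system, best known from bone, showed no called member. The receptor Tnfrsf11a (RANK) was at 1.39, 0.757 and 1.14 CPM in Fam210aHKO and 1.30, 0.568 and 0.807 CPM in Ctrl (log2 fold change 0.33, SE 0.414, adjusted p = 0.6). Tnfrsf11b encodes osteoprotegerin, a secreted decoy receptor for the RANK ligand that also binds TRAIL. It was at 3.87, 6.67 and 2.98 CPM in Fam210aHKO and 3.48, 3.82 and 4.10 CPM in Ctrl (log2 fold change 0.23, SE 0.302, adjusted p = 0.614). Both overlapped between groups. The ligand Tnfsf11 had 0 counts in all 6 libraries.

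Members that serve lymphocytes were at or near the limit of detection in these whole livers. Tnfrsf13b, the TACI receptor of B cells, was the only tested member of the BAFF and APRIL system, with 6, 15 and 27 counts in Fam210aHKO and 2, 2 and 16 counts in Ctrl (log2 fold change 0.71, SE 0.711, adjusted p = 0.497). The ligand Tnfsf13b (BAFF) had 5, 3 and 4 counts in Fam210aHKO and 1, 5 and 2 in Ctrl. Tnfsf13 (APRIL) had 1, 2 and 4 counts in Fam210aHKO and 2, 3 and 4 in Ctrl, with 57.3% of its 50-base stretches shared with Tnfsfm13. The BAFF receptor gene Tnfrsf13c had 2, 0 and 6 counts in Fam210aHKO and 1, 2 and 4 in Ctrl, and Tnfrsf17 (BCMA) had 3 counts in Fam210aHKO replicate 1 and 0 elsewhere.

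The T cell costimulation pairs were not tested either. Tnfrsf18 (GITR) had 6, 2 and 5 counts in Fam210aHKO and 6, 10 and 5 in Ctrl, the highest count of any untested member being that 10. In 18.7% of its 50-base stretches it shares sequence with the antisense gene Gm16008. In CPM the Tnfrsf18 groups did not overlap, with 0.287, 0.138 and 0.219 in Fam210aHKO, below 0.522, 0.812 and 0.336 in Ctrl. With no filter on low counts the fit gave a log2 difference of -1.23 for Tnfrsf18 (SE 0.626, adjusted p = 0.23, edgeR quasi-likelihood test). Tnfrsf25 (DR3) had 6, 3 and 3 counts in Fam210aHKO and 7, 2 and 5 in Ctrl. Tnfrsf4 (OX40) had 0, 2 and 1 counts in Fam210aHKO and 0, 4 and 4 in Ctrl. Tnfrsf9 (4-1BB) had 3, 0 and 2 counts in Fam210aHKO and 1, 0 and 0 in Ctrl, and the ligand Tnfsf8 had 2, 0 and 5 in Fam210aHKO and 1, 1 and 0 in Ctrl. Tnfrsf8 (CD30) and the ligands Tnfsf9, Tnfsf15 and Tnfsf18 had at most 1 count in a library, and the ligand Tnfsf4 had 0 counts in all 6. Counts this low leave differences between the groups imprecise. With no filter, 33 members entered the edgeR test and the same 5 were called. Lymphocyte markers were at few counts too. The 5 T cell markers summed to 2.13 to 3.11 CPM in Fam210aHKO and 2.92 to 4.37 CPM in Ctrl, and the 5 B cell markers to 2.87 to 5.83 CPM in Fam210aHKO and 3.82 to 4.97 CPM in Ctrl.

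**Figure D3:**
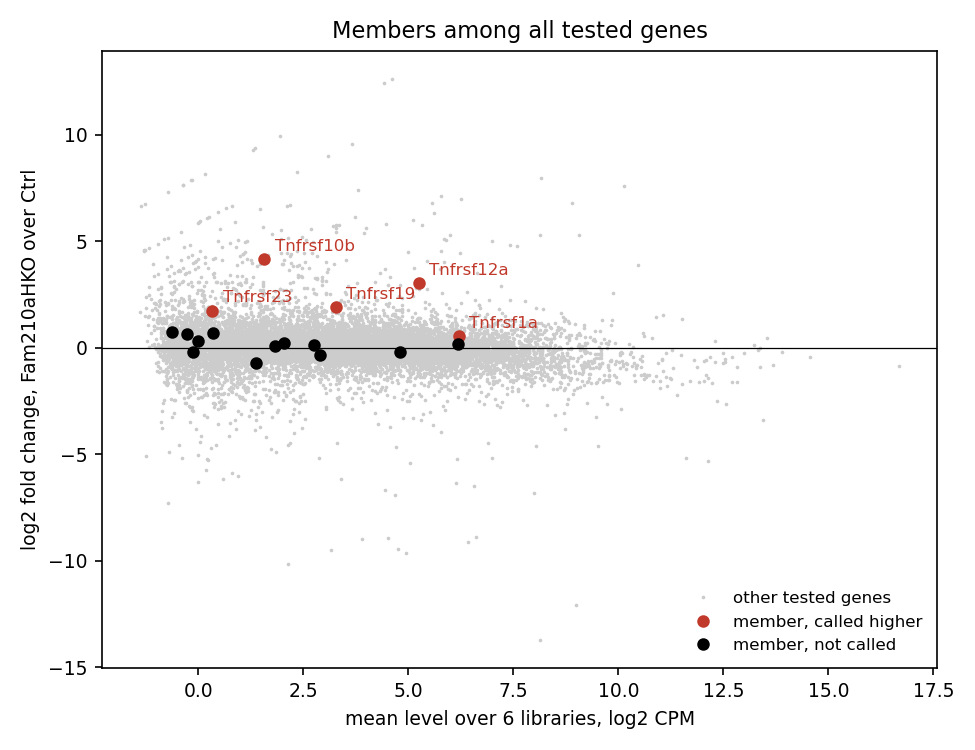
Log2 fold change, Fam210aHKO over Ctrl, against the mean level in log2 CPM for all 13706 tested genes, with genes outside the superfamily in grey, called members in red and members not called in black. Tnfrsf10b and Tnfrsf12a lie above the dense band of genes, at 4.17 and 3.02 on the vertical axis, with other genes higher still, and Tnfrsf1a lies at 0.55.

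The make-up of the receptor messages shifted with these changes. FPKM values, which the authors computed per length, allow genes to be compared within a library, while levels between the groups also carry the library size the authors divided by. In the Fam210aHKO libraries Tnfrsf12a held 29.7%, 32.4% and 25.5% of the summed FPKM of the 21 receptors, against 5.10%, 9.31% and 4.40% in the Ctrl libraries. Ltbr held 29.7%, 24.6% and 27.9% in Fam210aHKO, against 44.0%, 36.2% and 38.8% in Ctrl. Tnfrsf1a held 27.7%, 29.5% and 27.4% in Fam210aHKO, against 31.0%, 32.9% and 32.9% in Ctrl. In Ctrl Ltbr and Tnfrsf1a led in every library, while in Fam210aHKO Tnfrsf12a stood beside them. These 3 receptors had mean levels of 49.2 ± 9.13 (Tnfrsf12a), 47.4 ± 4.88 (Tnfrsf1a) and 46.0 ± 6.09 FPKM (Ltbr) in Fam210aHKO (SD, n = 3), so their order there lay within the spread between replicates, and the first rank was held by Ltbr in 2 libraries and Tnfrsf12a in 1. In Ctrl the means were 6.37 ± 1.66, 34.1 ± 4.57 and 42.4 ± 10.5 FPKM (SD, n = 3). Tnfrsf19 took place 5 among the receptors in every Fam210aHKO library and place 8 in every Ctrl library. Tnfrsf10b took places 8 and 9 in Fam210aHKO, against places 16 and 18 in Ctrl. The summed FPKM of all receptors was 31.7, 25.7 and 20.3 times that of all ligands in Fam210aHKO, against 17.1, 14.9 and 14.6 times in Ctrl, and no ligand was called. The receptor sum includes Tnfrsf12a, so this ratio carries its increase and does not describe the other receptors apart from it. At an unadjusted p under 0.05 the count of ligands was also 0 of 3 by edgeR, and DESeq2 and limma-voom called 0. The shares have no test, since the genes that make them up are those already compared.

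**Figure D4:**
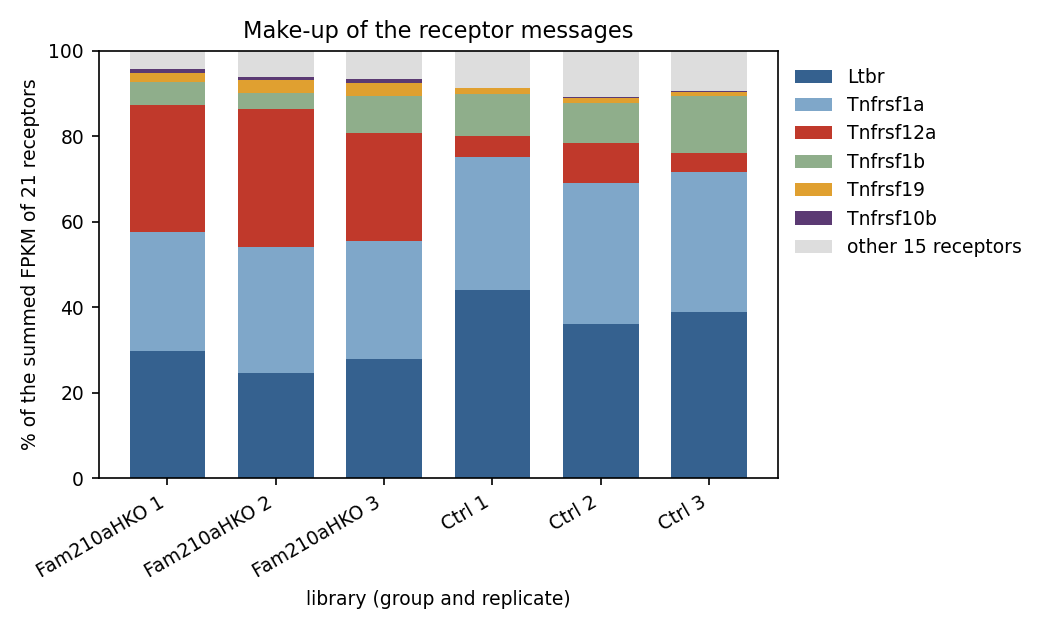
Share of each receptor in the summed FPKM of the 21 receptors, in percent, 1 bar per library with Fam210aHKO at the left. The red part, Tnfrsf12a, fills 25.5% to 32.4% in Fam210aHKO and 4.40% to 9.31% in Ctrl.

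The superfamily also holds genes whose symbols the rule does not match, and 11 of them were listed. Of these, 4 passed the filter, and 1 rose, 0 fell and 3 did not pass the test. That is 25.0% of 4 genes called, beside 27.5% of all tested genes. Their median log2 fold change was 0.31, and over so few genes it moved to 1.01 without Ctrl replicate 1, 0.86 without Ctrl replicate 3, 0.52 without Fam210aHKO replicate 2 and 0.21 without Fam210aHKO replicate 3. The gene that rose was Eda2r, a receptor for ectodysplasin A2 and a known p53 target. It was at 15.4, 11.3 and 10.8 CPM in Fam210aHKO, against 0.696, 0.162 and 0.807 CPM in Ctrl (log2 fold change 4.45, SE 0.378, adjusted p = 1.97e-05, edgeR quasi-likelihood test). The death receptor gene Fas was at 11.9, 16.0 and 22.3 CPM in Fam210aHKO and 18.3, 20.4 and 19.2 CPM in Ctrl, with overlapping groups (log2 fold change -0.21, SE 0.217, adjusted p = 0.520). The others that passed were Ngfr and Eda, neither of which was called.

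Downstream of the receptors, most signalling genes kept below the threshold. Of 41 listed adaptors, kinases, ubiquitin enzymes and NF-kB subunits, 40 were tested. Of those, 2 rose (5.0%), 3 fell (7.5%) and 35 did not pass, below the shares of all tested genes in both directions, with a median log2 fold change of -0.02. Rhbdf2, which brings the TNF-releasing protease ADAM17 to the cell surface, rose to 19.4 ± 2.70 CPM in Fam210aHKO, against 10.6 ± 0.969 CPM in Ctrl (SD, n = 3; log2 fold change 0.88, edgeR adjusted p = 0.00347). Traf4 rose to 41.9 ± 1.60 CPM in Fam210aHKO, against 27.7 ± 4.76 CPM in Ctrl (log2 fold change 0.60, edgeR adjusted p = 0.0161).

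Cflar, Cyld and Bag4 fell, 3 of the 40 tested signalling genes (7.5%), where 13.5% of all tested genes were called lower. Cflar, which encodes the caspase-8 inhibitor c-FLIP, fell to 62.8 ± 11.4 CPM in Fam210aHKO, against 111 ± 7.90 CPM in Ctrl (SD, n = 3; log2 fold change -0.82, edgeR adjusted p = 0.00311). Cyld, a deubiquitinase that limits NF-kB signalling, was at 19.6 ± 1.97 CPM in Fam210aHKO and 29.5 ± 2.42 CPM in Ctrl (log2 fold change -0.59, edgeR adjusted p = 0.0151). Bag4, which encodes the silencer of death domains SODD, was at 19.4 ± 5.47 CPM in Fam210aHKO and 32.6 ± 2.91 CPM in Ctrl (log2 fold change -0.75, edgeR adjusted p = 0.0168). Each of the 3 lost its call with library totals (edgeR adjusted p = 0.0897, 0.515 and 0.249). The signalling list then had 16 of its 40 tested members higher and 0 lower, where 42.7% of all tested genes were called higher and 6.33% lower. With the replicate block it had 6 higher and 3 lower, and both counts are below the 17.8% and 18.0% of all tested genes under that fit. Without Ctrl replicate 3, Traf4 (adjusted p = 0.0765), Cyld (0.0548) and Bag4 (0.0562) were not called. Traf4 was also not called without Ctrl replicate 2 (0.055) or Fam210aHKO replicate 1 (0.0569), Cyld without Fam210aHKO replicates 1 (0.059) or 2 (0.056), and Bag4 without Fam210aHKO replicate 2 (0.0731).

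Genes known as NF-kB targets were called in both directions, at shares near those of all genes. Of 22 listed, 18 were tested, and 3 rose, 3 fell and 12 did not pass. The share was 16.7% in each direction, beside 14.0% higher and 13.5% lower among all tested genes. Their median log2 fold change was -0.14. It lay at -0.037 without Ctrl replicate 1 and -0.065 without Fam210aHKO replicate 1, at -0.22 without Ctrl replicate 3 or Fam210aHKO replicate 3, and turned to 0.32 with library totals. The feedback gene Tnip1, which encodes a partner of A20, rose to 21.8 ± 2.32 CPM in Fam210aHKO, against 7.76 ± 1.73 CPM in Ctrl (SD, n = 3; log2 fold change 1.5, edgeR adjusted p = 0.000338). The adhesion molecule Icam1 rose to 17.9 ± 3.66 CPM in Fam210aHKO, against 9.96 ± 0.113 CPM in Ctrl (log2 fold change 0.84, edgeR adjusted p = 0.00635). Vcam1 was called higher as well (log2 fold change 0.71, edgeR adjusted p = 0.0403), with overlapping groups of 37.5, 50.3 and 50.3 CPM in Fam210aHKO and 22.2, 39.5 and 22.9 CPM in Ctrl. Its call was lost without Ctrl replicate 1, Ctrl replicate 3, Fam210aHKO replicate 2 or Fam210aHKO replicate 3 (adjusted p = 0.15, 0.154, 0.109 and 0.0927). The acute phase gene Saa3 fell to 1.30 ± 0.648 CPM in Fam210aHKO, against 5.19 ± 1.17 CPM in Ctrl (log2 fold change -1.98, edgeR adjusted p = 0.002). Nfkbiz, which encodes a nuclear IkB protein, fell to 3.92 ± 0.781 CPM in Fam210aHKO, against 8.57 ± 1.45 CPM in Ctrl (log2 fold change -1.12, edgeR adjusted p = 0.00438). Sod2, the mitochondrial superoxide dismutase, was at 144 ± 10.7 CPM in Fam210aHKO and 210 ± 21.5 CPM in Ctrl (log2 fold change -0.55, edgeR adjusted p = 0.0156), and it was not called with library totals (0.639), without Ctrl replicate 1 (0.0554) or without Fam210aHKO replicate 1 (0.0575). With library totals this list had 5 members higher and 2 lower, where 42.7% of all tested genes were called higher and 6.33% lower. With the replicate block it had 3 higher and 5 lower, where 17.8% and 18.0% of all tested genes were called.

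**Figure D5:**
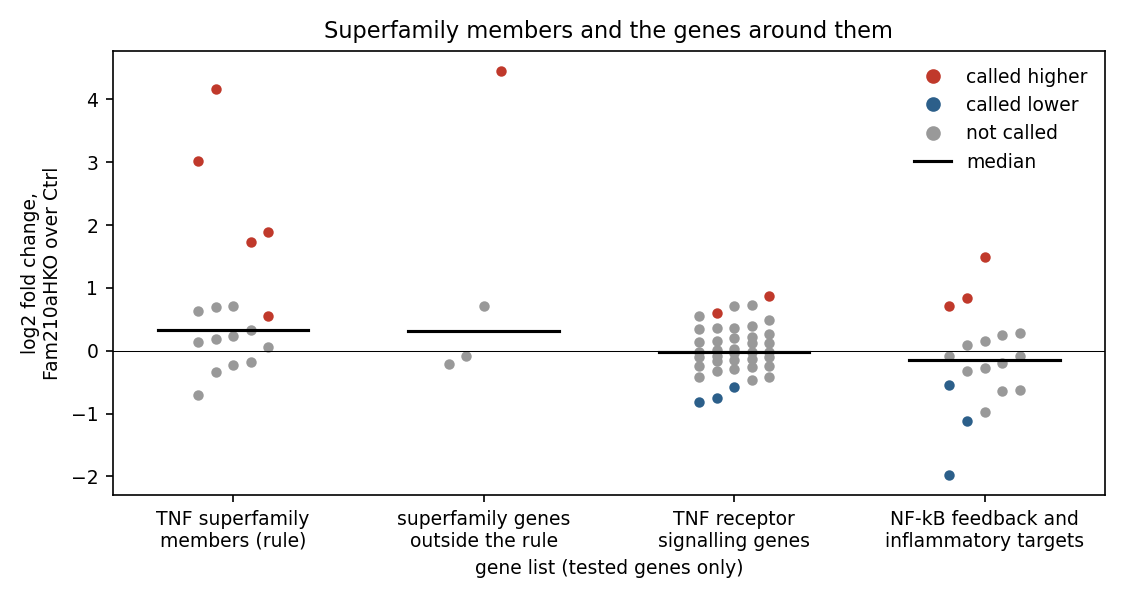
Log2 fold change, Fam210aHKO over Ctrl, of each tested gene in the superfamily and in the 3 surrounding lists, with called genes coloured by direction and a black bar at each median. The signalling list gathers near 0, with a median of -0.02, while 4 superfamily members lie above 1.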

How the data were processed

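Liver poly-A RNA from 3 Fam210aHKO and 3 Ctrl samples was analysed, grouped by sample title. The submitters' processing notes name mm10 as the build and STAR, featureCounts, Trimmomatic, FastQC and DESeq2 as tools. The authors deposited raw counts per Ensembl gene, with no normalization. They also deposited FPKM, per kilobase of gene length and per 1000000 of a library size. Worked out from the values, that size was 81.6% to 86.3% of the count total in Fam210aHKO and 55.4% to 60.1% in Ctrl. The sources used here do not say how it was set, whether strand was used in counting, or how multimapping reads were treated.

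Fam210aHKO was compared with Ctrl in edgeR 4.0.16 (R 4.3.3), with no other factor in the model. Genes were filtered by filterByExpr (minimum count 10) and scaled by TMM, and the two-sided quasi-likelihood test was used. Benjamini-Hochberg adjustment ran over the 13706 genes tested, and a gene was called when its adjusted p was below 0.05. An SE was obtained from the fold change and the square root of its F statistic. For CPM, counts were divided by the TMM-scaled total over tested genes. Fits with limma 3.58.1 and DESeq2 1.42.0 served as alternatives. The edgeR step was tested on simulated data. Shared sequence was searched with 50-base stretches in GENCODE vM21 transcripts, and promoters come from RefSeq. Totals of 12.5 to 19.7 M counts leave members with few counts imprecise.

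Same-numbered libraries deviated together from their group means (correlations 0.287, 0.259 and 0.205, against -0.173 to -0.0475 for other pairs). Deviations cancel out within a group, so positive values for same-numbered pairs push the others to negative values, and that contrast is not separate evidence. Since each exceeded 0.1, the numbers were taken to pair the samples, from the data alone. Counts under a fit with the replicate block are given for all tested genes and for each list it moved. Fold changes, SEs and p-values given for genes come from fits without this block and do not use the pairing. The members, the gene lists and the naming rule were chosen with earlier results of these data known. Every member is named. From each pathway list up to 3 called genes of smallest p in each direction are named, and other genes named were chosen after their values were seen.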

Additional observations from a re-analysis of the deposited data

How the results depend on the processing

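The calls of Tnfrsf10b, Tnfrsf12a and Tnfrsf19 held under each of 16 other settings, and so did that of Fam210a. Tnfrsf1a and Tnfrsf23 lost theirs without single libraries and at an adjusted p under 0.01. Superfamily members called higher numbered 8 with library totals, 3 at an adjusted p under 0.01 and 3 to 5 without single libraries, and 1 member (Tnfrsf14) was called lower with log2(FPKM + 1) and with log2(FPKM + 0.1). Over all genes, library totals gave 5846 higher and 868 lower, and an adjusted p under 0.01 gave 1094 and 1068. Over all genes, log2(FPKM + 1) gave 1590 higher and 2014 lower, and log2(FPKM + 0.1) gave 1589 and 2008. Without single libraries, 1339 to 1897 of all genes were called higher and 1334 to 1834 lower. The replicate block gave 2434 higher and 2462 lower over all genes. With library totals the outside genes had 2 higher, the signalling list 16 higher and 0 lower and the NF-kB list 5 higher. Of all tested genes 42.7% were called higher and 6.33% lower under that scaling. At an adjusted p under 0.01 the signalling list had 1 higher and 1 lower. Without single libraries it had 1 to 2 higher and 1 to 4 lower. With the replicate block the signalling list had 6 higher and the NF-kB list 5 lower, as calls over all genes also grew, and no call of a superfamily member changed. List medians with library totals were 0.77 for the superfamily, 0.75 for the outside genes, 0.43 for the signalling list and 0.32 for the NF-kB list, beside 0.47 over all genes. The superfamily median was 0.14 with log2(FPKM + 1) and 0.18 with log2(FPKM + 0.1), beside -0.031 and -0.044 over all genes.

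Members that were not called turned sign as follows. With library totals the log2 fold changes were 0.26 for Tnfrsf1b, 0.10 for Tnfsf10 and 0.23 for Tnfrsf26. Without single libraries they lay between -0.43 and 0.047 for Tnfrsf1b, -0.50 and 0.21 for Tnfrsf26, -0.15 and 0.23 for Tnfsf12, -0.15 and 0.46 for Tnfrsf11b and -0.11 and 0.26 for Tnfrsf21. Depth limits the 18 untested members, none of which exceeded 10 counts in a library. Where no cause is named, the cause was not tested.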

Other observations

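The chromosome 11 locus that holds Tnfsf12 and Tnfsf13 also holds the read-through gene Tnfsfm13, which the symbol rule leaves out, and the antisense gene Tnfsf13os. Tnfsfm13 had 14 counts over the Fam210aHKO libraries and 5 over the Ctrl libraries, and Tnfsf13os had 23 and 16. Without a stated strand setting, reads of the antisense gene and of the genes opposite it cannot be told apart. Tnfrsf9 overlaps Camta1 on the other strand in the table's coordinates. Neighbouring members did not share a call: Tnfrsf1a was called and Ltbr was not, and of the chromosome 7 row only Tnfrsf23 was called. No test compared them.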
